A study of Homo sapiens with 6 samples.

Results

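Transcripts of the human mitochondrial genome were taken as the rows of the count table whose gene name starts with MT-. There were 37 such rows among 60675, made up of 13 mRNAs, 2 ribosomal RNAs (rRNAs) and 22 transfer RNAs (tRNAs), and the classes are described apart because the RNA had been depleted of ribosomal RNA. The cells were HT1080, an established human fibrosarcoma line, labelled as wild type and kept for 48 h with 1 µM of an inhibitor, either SW-113 or SW-138. The study asked how selective such inhibitors are for KDAC6, also called HDAC6, a lysine deacetylase that works mostly outside the nucleus. Each compound had 3 libraries, 6 in all, so every library came from inhibitor-exposed cells, and no group labelled as untreated or vehicle entered the comparison. All differences are given as SW-138 minus SW-113 and do not say which compound moved a transcript. The labels name the libraries of a compound by number and do not say whether each was its own culture. The p-values therefore cover only the spread among these libraries, which may be technical.

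The mitochondrial genome is a small circle that is copied into RNA from both of its strands as long precursors. In most places a tRNA lies between the coding parts, and cutting out the tRNAs releases the mRNAs and rRNAs, which differ afterwards in how long they last. Its mRNAs encode core subunits of respiratory complex I (the MT-ND genes), complex III (MT-CYB), complex IV (the MT-CO genes) and ATP synthase (MT-ATP6 and MT-ATP8), its rRNAs MT-RNR1 and MT-RNR2 belong to the small and large subunits of the mitochondrial ribosome, and its tRNAs serve that ribosome. Everything else the system needs, from the RNA polymerase to the ribosomal proteins, is made from nuclear genes and imported.

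The layout of the rows bears on what a count in them can hold, and a few stretches show it. All sequences are from GENCODE release 29 on GRCh38, written 5′ to 3′ on the strand of the gene. MT-RNR1 (chrM:648-1601) and MT-RNR2 (chrM:1671-3229) are separated by 1 tRNA, MT-TV (chrM:1602-1670), with no base between them, shown here by the last 40 bases of the first, the whole tRNA and the first 40 bases of the second.
end of MT-RNR1: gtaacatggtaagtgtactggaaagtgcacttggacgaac
MT-TV: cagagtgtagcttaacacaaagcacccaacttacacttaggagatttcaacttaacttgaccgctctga
start of MT-RNR2: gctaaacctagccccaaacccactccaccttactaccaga
Of the 15 mRNA and rRNA rows, 9 had a tRNA within 3 bases on the left in genome coordinates, 10 had one on the right and 5 had one on both sides.

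2 pairs of mRNA rows have no tRNA between them and stay together, so that 1 RNA molecule carries both reading frames. MT-ATP8 and MT-ATP6 share 46 bases and MT-ND4L and MT-ND4 share 7, in capitals below. MT-ATP6 also meets MT-CO3 (chrM:9207-9990) at 1 shared base, where the RNA is cut. The windows are chrM:8497-8572, chrM:8527-8602, chrM:10730-10766 and chrM:10760-10796.
end of MT-ATP8: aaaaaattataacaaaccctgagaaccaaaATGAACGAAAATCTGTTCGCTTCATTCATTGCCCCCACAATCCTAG
start of MT-ATP6: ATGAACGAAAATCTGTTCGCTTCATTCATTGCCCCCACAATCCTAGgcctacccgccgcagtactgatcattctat
end of MT-ND4L: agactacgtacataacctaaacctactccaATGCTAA
start of MT-ND4: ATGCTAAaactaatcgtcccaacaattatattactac
Lengths of 6 of the 13 mRNA rows are not a multiple of 3, since 5 end in T and 1 in TA, and their stop codon is completed by the poly(A) tail.

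MT-ND6 is the only mRNA row on the minus strand of the annotation. Its first 60 bases (chrM:14614-14673) are set beside those of MT-CO1 (chrM:5904-5963), with every G in capitals.
start of MT-ND6: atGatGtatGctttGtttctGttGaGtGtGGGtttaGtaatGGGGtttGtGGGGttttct
start of MT-CO1: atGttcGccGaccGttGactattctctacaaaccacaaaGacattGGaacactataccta
Over its whole length MT-ND6 is 35.6% G and 7.05% C. The other 12 mRNAs hold 6.28% to 16.2% G and 29.5% to 36.0% C. How reads were assigned to strands is not given in the sources used here, so reads from RNA antisense to MT-ND6 cannot be told apart from its own.

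Library totals ran from 32771670 to 50871623 counts, and 16905 rows entered the test across all genes. Mesenchymal markers summed to 6285 to 7132 counts per 1000000 (CPM) with SW-113 and 7036 to 8028 with SW-138, with 8 of 10 markers counted in every library, led by VIM. Other mesenchymal markers were near the floor, with SW-113 and SW-138 means of 0.67 and 1.32 CPM for COL1A1 and 0.98 and 0.72 for S100A4. COL1A2 had means of 0.10 and 0.07 CPM and FAP 0.02 and 0. Epithelial markers (6 genes) summed to 1.80 to 3.21 CPM and endothelial markers (5 genes) to 1.25 to 1.63. Most of the epithelial sum was CLDN4, with means of 2.30 CPM with SW-113 and 2.57 with SW-138, while EPCAM and CDH1 had means under 0.03 CPM. Blood cell markers (6 genes) summed to 77.1 to 95.7 CPM, nearly all of it CD68, while PTPRC had means of 0.0087 and 0.0099 CPM and HBB was at 0. With edgeR's quasi-likelihood test at an adjusted p of 0.05, 1153 genes differed between the compounds, 466 higher and 687 lower with SW-138. With total counts as the only scaling the split turned to 923 higher and 377 lower.

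The 13 mRNAs made up 1.73% to 2.99% of all counts. Their summed share was 2.27%, 1.73% and 2.36% of a library with SW-113 and 2.99%, 2.05% and 2.38% with SW-138. The ranges overlapped, the means were 2.12% ± 0.340 and 2.47% ± 0.475 (SD, n = 3 each), and the difference of 0.354 percentage points had an exact two-sided permutation p of 0.4. With 3 libraries against 3 the smallest p that test can give is 0.1, and it was used for 5 shares and ratios in all, where this p became 0.5 after Benjamini-Hochberg adjustment. In bulk RNA, fewer cells with a transcript and less of it per cell cannot be told apart. The 2 rRNAs together had 214 to 944 counts in a library, and the 22 tRNAs had 0.

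**Figure D1:**
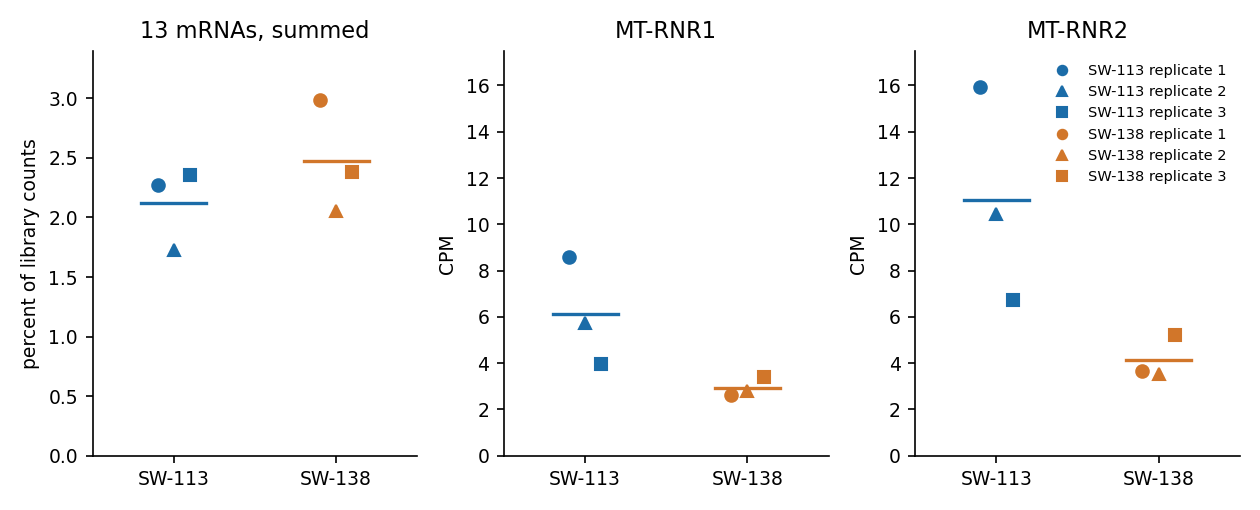
Mitochondrial mRNAs (left, summed, as percent of library counts) and the rRNAs MT-RNR1 (middle) and MT-RNR2 (right, both in CPM) in each of 6 libraries, with symbols for replicate numbers and bars for the mean of 3. The mRNA shares run from 1.73% to 2.36% with SW-113 and from 2.05% to 2.99% with SW-138 and so overlap, while for each rRNA all 3 SW-138 libraries lie below all 3 SW-113 libraries.

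Per kilobase of transcript, mRNA counts spanned a 75.9-fold range over the mean of the 6 libraries, with the shortest row lowest. Counts were divided by full transcript length, although a 150-base window has only 58 positions in MT-ATP8 and 148 in MT-ND4L. The part of this in the low values of short rows was not tested. The complex IV mRNAs stood at the top. MT-CO1, the catalytic subunit, had 4712 ± 716 CPM per kilobase with SW-113 and 5160 ± 980 with SW-138 (SD, n = 3 each), MT-CO3 had 3288 ± 534 and 3782 ± 499, and MT-CO2, which takes electrons from cytochrome c, had 3091 ± 377 and 3372 ± 567. MT-ATP6, part of the proton channel of ATP synthase, followed with 2057 ± 372 and 2312 ± 573.

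Complex I mRNAs spread over the rest of the range. MT-ND4 had 1819 ± 341 CPM per kilobase with SW-113 and 2114 ± 530 with SW-138, and MT-CYB, the only complex III subunit of this genome, had 1310 ± 196 and 1489 ± 284. MT-ND2 had 1264 ± 221 and 1434 ± 248, MT-ND5 had 901 ± 174 and 987 ± 189, and MT-ND1 had 836 ± 108 and 979 ± 179. Below these MT-ND3 had 547 ± 89.2 and 560 ± 77.7, MT-ND6 had 503 ± 103 and 542 ± 110, and MT-ND4L had 397 ± 89.3 and 335 ± 59.9. MT-ATP8, the accessory subunit of ATP synthase, was lowest with 71.3 ± 19.5 and 58.7 ± 16.9 CPM per kilobase, 5.63-fold under MT-ND4L in the mean of all libraries.

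The order was nearly the same in every library. Of the 12 neighbouring pairs in it, 9 were ordered alike in 6 of 6 libraries, although the ranges of the 2 genes over libraries overlapped in 10 pairs, since libraries moved up and down together. The 3 unsettled neighbours were MT-CYB over MT-ND2 (5 of 6 libraries, 1.04-fold), MT-ND5 over MT-ND1 (4 of 6, 1.04-fold) and MT-ND3 over MT-ND6 (5 of 6, 1.06-fold). Across the 13 mRNAs the level per kilobase had a Spearman rho of 0.593 with transcript length, as a description over rows of the same libraries.

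**Figure D2:**
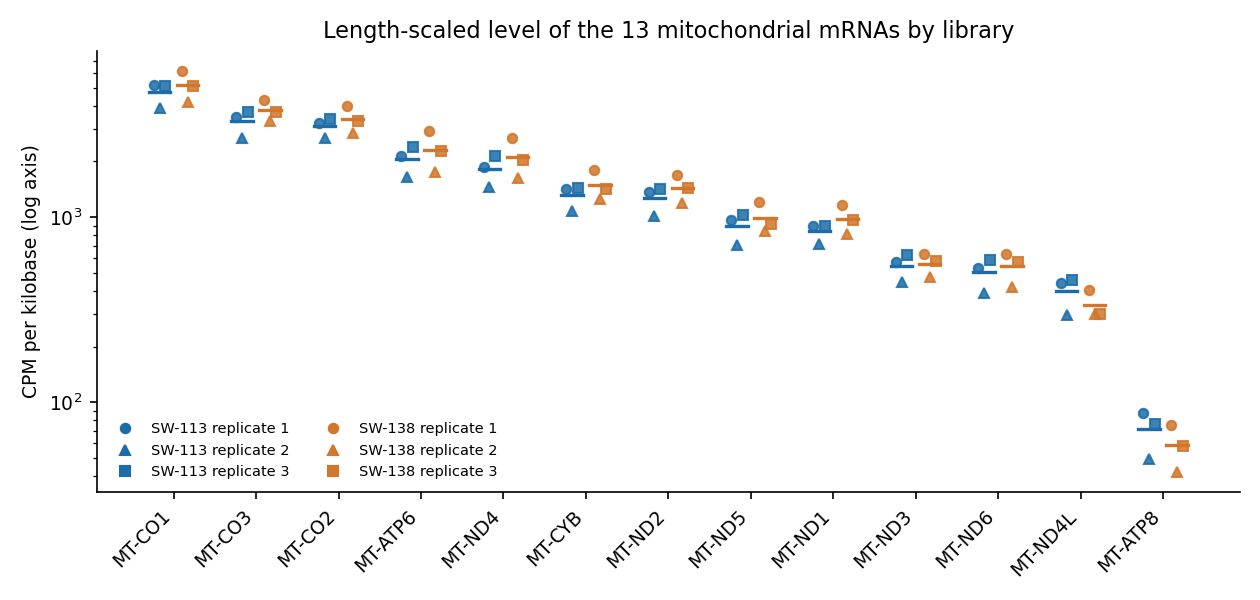
CPM per kilobase (log axis) of each mitochondrial mRNA in each library, in order of the mean over 6 libraries, with symbols for replicate numbers and short lines for the mean of 3. MT-CO1 is highest and MT-ATP8 lowest for both compounds, and SW-113 replicate 2 (blue triangles) is the lowest SW-113 library for 13 of 13 mRNAs.

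The mRNAs varied between libraries as a block. SW-113 replicate 2 was the lowest SW-113 library for 13 of 13 mRNAs and SW-138 replicate 2 the lowest SW-138 library for 12 of 13, while SW-138 replicate 1 was the highest SW-138 library for 13 of 13 and the highest of all 6 for 11 of 13. MT-CO1 shows the pattern, with 7944, 5992 and 7862 CPM in the SW-113 libraries and 9503, 6482 and 7886 in the SW-138 libraries. Summed over the 13 mRNAs, the highest library had 1.64 times the CPM of the lowest. The median standard deviation of an mRNA's log2 CPM within a compound was 0.27 for both compounds, against 0.07 with SW-113 and 0.08 with SW-138 for 10566 genes above 5 CPM in every library. When each mRNA was taken instead per mitochondrial mRNA count, the median standard deviation of the log2 value dropped to 0.05 with SW-113 and 0.08 with SW-138.

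No mRNA passed the test between the compounds. EdgeR called 0 of 13 mRNAs in either direction, against 6.82% of all tested genes. Without adjustment 0 of 13 were under 0.05, against 22.3% of all tested genes, and the fits with DESeq2 and with limma-voom called 0 each. When every row with at least 1 count in 1 library was kept, edgeR called 6 of 13, against 2061 of 31536 genes in that fit. They were MT-ND1, MT-ND4, MT-CO3, MT-CYB and MT-ND2 higher and MT-ND4L lower. The CPM ranges of the compounds overlapped for 13 of 13, where 27.9% of tested genes did not overlap. The estimate was higher with SW-138 for 11 mRNAs and lower for 2, with a median log2 difference of 0.13 over the 13 and 0.01 over all tested genes. Standard errors ran from 0.12 to 0.23, above the median of 0.09 for all tested genes, and the 95% intervals together spanned log2 differences from -0.78 to 0.59.

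MT-ND1, a complex I subunit at the membrane arm, had the smallest p. It had 859, 680 and 860 CPM with SW-113 and 1114, 773 and 920 with SW-138. One SW-138 library lay between the SW-113 libraries, and the log2 difference was 0.23 ± 0.13 (SE, edgeR adjusted p = 0.327, 95% interval -0.05 to 0.50). MT-ND4 was at 0.22, MT-CO3 at 0.20, MT-CYB at 0.19, MT-ND2 at 0.18, MT-ATP6 at 0.17, MT-ND5 at 0.13, MT-CO1 at 0.13, MT-CO2 at 0.13, MT-ND6 at 0.11 and MT-ND3 at 0.04 on the log2 scale, with edgeR adjusted p from 0.364 to 0.897. These signs rested on single libraries for several of them. Without SW-138 replicate 1 the log2 differences of MT-ATP6, MT-CO1, MT-CO2, MT-ND3, MT-ND5 and MT-ND6 were between -0.06 and -0.01, and without SW-113 replicate 2 those of MT-ND3, MT-ND5 and MT-ND6 were between -0.09 and -0.02. Without SW-138 replicate 2, MT-ND1 passed the edgeR threshold at 0.35 (adjusted p = 0.047).

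**Figure D3:**
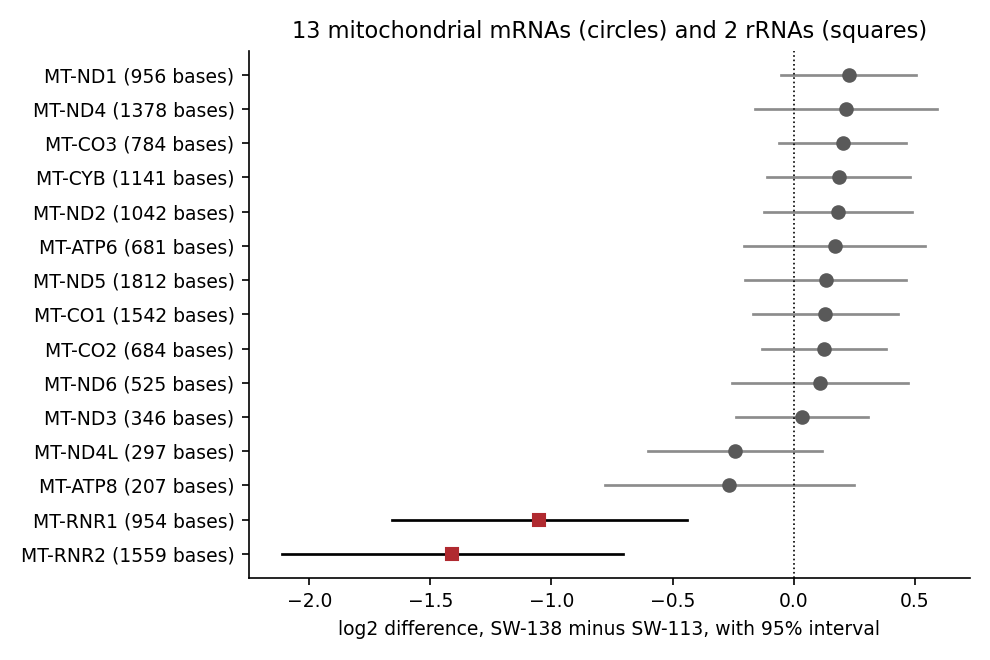
Log2 difference (SW-138 minus SW-113) of the 13 mRNAs (circles) and 2 rRNAs (squares) that were tested, with 95% intervals and transcript lengths, red where edgeR's adjusted p was under 0.05. The intervals of 13 of 13 mRNAs cover 0, and both rRNAs lie below 0.

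Ratios within the mitochondrial mRNAs take out what the libraries share. Summed over the 7 MT-ND rows and the 3 MT-CO rows, complex I relative to complex IV was at a log2 ratio of -0.84, -0.86 and -0.74 with SW-113 and -0.73, -0.82 and -0.80 with SW-138. The ranges overlapped and the difference was 0.03 (exact permutation p = 0.5, 0.5 adjusted), which became -0.0014 with counts per kilobase. MT-ND6 relative to the sum of the other 12, from opposite strands of the genome, was at -6.35, -6.43 and -6.27 with SW-113 and -6.43, -6.48 and -6.28 with SW-138. The difference of -0.05 was again within the spread (exact permutation p = 0.5, 0.5 adjusted).

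The 3 shortest mRNAs made up less of the mitochondrial mRNA in each SW-138 library than in any SW-113 library. Per 1000000 mitochondrial mRNA counts, 4 of 13 mRNAs had ranges that did not overlap between the compounds, 1 higher and 3 lower with SW-138. On that scale 7.91% of all tested genes did not overlap, and in CPM 27.9% did not. The 7.91% is not a like background for the 13 mRNAs. Dividing by mitochondrial mRNA counts takes out variation that they share, but not that of other genes. The 4 of 13 are therefore not read as an excess. The higher one was MT-ND1, with 37076, 38311 and 35582 against 38354, 38816 and 38804, with its highest SW-113 library just below its lowest SW-138 library. The lower ones were the 3 shortest rows, MT-ND3 (346 bases), MT-ND4L (297 bases) and MT-ATP8 (207 bases). MT-ND4L had 5639, 4923 and 5612 with SW-113 and 4132, 4489 and 3760 with SW-138. MT-ATP8 had 783, 579 and 657 with SW-113 and 540, 437 and 510 with SW-138. In CPM, where the test across all genes was made, neither passed, with log2 differences of -0.24 ± 0.16 for MT-ND4L and -0.27 ± 0.23 for MT-ATP8 (SE, edgeR adjusted p = 0.411 and 0.528).

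The RNAs that carry 2 reading frames allow a comparison within 1 molecule. MT-ATP8 counts were 1.25%, 0.913% and 0.977% of MT-ATP6 counts with SW-113 and 0.794%, 0.728% and 0.778% with SW-138. MT-ND4L counts were 5.10%, 4.35% and 4.60% of MT-ND4 counts with SW-113 and 3.25%, 3.98% and 3.18% with SW-138. In both pairs all SW-138 libraries were below all SW-113 libraries, by 0.44 on the log2 scale. The ratios were chosen after their values were seen and are given without a test. Leaving out any 1 library kept the log2 difference between -0.53 and -0.30 for MT-ATP8 and between -0.54 and -0.37 for MT-ND4L. MT-ND3, which lies on an RNA of its own behind a tRNA, had 7.25%, 7.37% and 7.41% of the counts of its neighbour MT-CO3 with SW-113 and 6.44%, 6.32% and 6.85% with SW-138, a log2 difference of -0.17. Per kilobase, MT-ATP8 had 2.39% to 4.11% of the level of MT-ATP6 and MT-ND4L 14.7% to 23.7% of that of MT-ND4, although each pair shares a molecule.

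**Figure D4:**
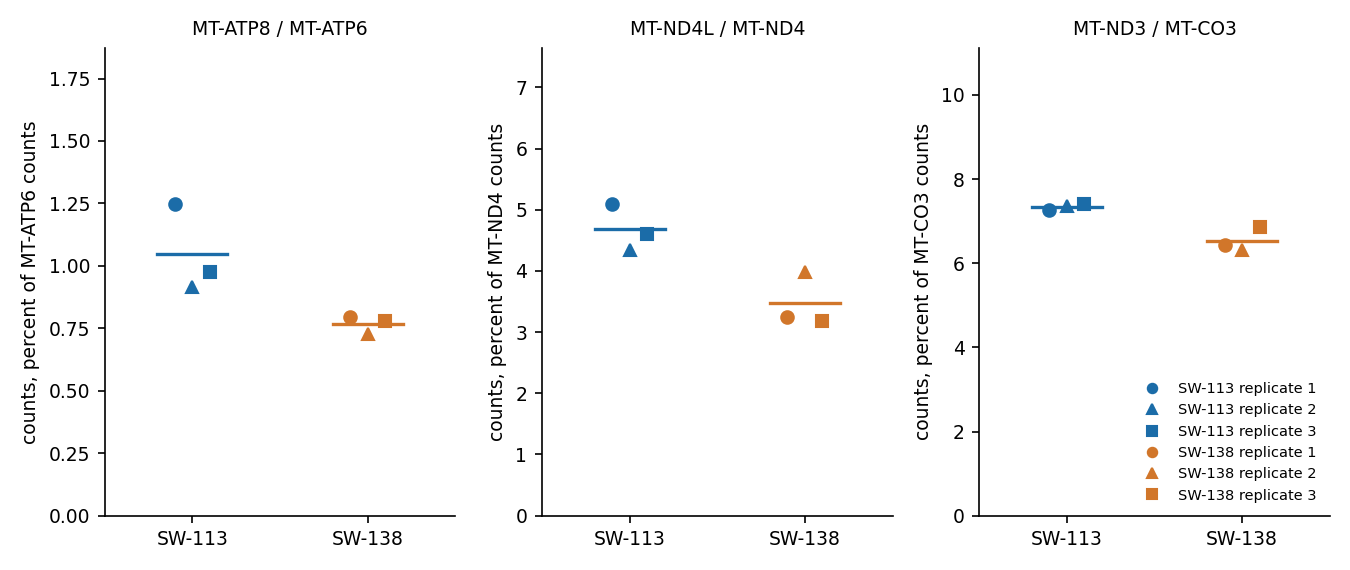
Counts of MT-ATP8, MT-ND4L and MT-ND3 as percent of the counts of MT-ATP6, MT-ND4 and MT-CO3 in each library, with symbols for replicate numbers and bars for the mean of 3. In each panel the 3 SW-138 libraries lie below the 3 SW-113 libraries.

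Short rows outside the mitochondrial genome had negative medians as well. Over the 13 mRNAs, length and log2 difference had a Spearman rho of 0.659. Among tested rows outside the MT- set, the median log2 difference was -0.43 for 28 rows of 200 to 299 bases (7 called), -0.14 for 151 rows of 300 to 499 bases (10 called), -0.07 for 1140 rows of 500 to 999 bases (94 called) and 0.01 for 15444 rows of 1000 bases or more (1034 called). MT-ATP8 at -0.27 and MT-ND4L at -0.24 belong to the first of these length classes and MT-ND3 at 0.04 to the second. Stable noncoding RNAs made up 8.74% to 9.86% of a library with SW-113 and 6.04% to 8.22% with SW-138. RN7SL1, the RNA of the signal recognition particle, made up 3.72% to 4.39% and 2.14% to 2.88%, so that neither range overlapped between the compounds. The part of fragment length or RNA quality in the short mitochondrial rows was not tested.

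MT-RNR1 and MT-RNR2, the rRNAs of the small and large mitochondrial ribosomal subunits, were the mitochondrial transcripts that differed between the compounds. Both had few counts, 94 to 331 for MT-RNR1 and 120 to 613 for MT-RNR2 in a library. MT-RNR2 had 15.9, 10.5 and 6.71 CPM with SW-113 and 3.67, 3.55 and 5.21 with SW-138. MT-RNR1 had 8.60, 5.75 and 3.96 CPM with SW-113 and 2.61, 2.78 and 3.42 with SW-138. For both, the highest SW-138 library was below the lowest SW-113 library, which held for 15.4% of tested genes in that direction.

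Both fell with SW-138 relative to SW-113. MT-RNR2 was at -1.41 ± 0.32 on the log2 scale (SE, 95% interval -2.11 to -0.705, edgeR adjusted p = 0.0147), or 2.66-fold lower. MT-RNR1 was at -1.05 ± 0.27 (95% interval -1.66 to -0.44, edgeR adjusted p = 0.0326), or 2.07-fold lower. EdgeR thus called 2 of 2 rRNAs lower, against 4.06% of all tested genes, and 21 of 16905 genes had a difference as low as that of MT-RNR2 or lower and 57 one as low as that of MT-RNR1. The calls rested on single libraries and on the estimate of the spread. Without SW-138 replicate 1 neither passed (edgeR adjusted p = 0.065 for MT-RNR2 and 0.114 for MT-RNR1), and MT-RNR1 also lost its call without SW-113 replicate 1 (0.086), SW-113 replicate 2 (0.084) or SW-138 replicate 3 (0.071). With edgeR's robust estimation neither passed (adjusted p = 0.109 for MT-RNR2 and 0.083 for MT-RNR1), and with limma-voom MT-RNR1 did not (0.060).

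Relative to the mRNAs, all 3 SW-138 libraries were again below all 3 SW-113 libraries. There were 1059, 913 and 441 rRNA counts per 1000000 mitochondrial mRNA counts with SW-113 and 216, 318 and 364 with SW-138. The log2 ratio of rRNA to mRNA differed by -1.36, with an exact permutation p of 0.1, the smallest the design allows (0.25 adjusted over the 5 shares and ratios). As a share of all counts the rRNAs had 0.431 times the mean of SW-113 with SW-138, again with an exact permutation p of 0.1 and an adjusted p of 0.25. MT-RNR2 counts were 1.85, 1.82 and 1.70 times those of MT-RNR1 with SW-113 and 1.40, 1.28 and 1.52 times with SW-138. The log2 difference of -0.36 became -0.01 when counts of nuclear copies were added to MT-RNR2. None of the 150-base windows of MT-RNR2 occurs without a mismatch in transcripts of other genes. Whether reads of MT-RNR2 were assigned to copies was not tested.

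These rRNA values are what was left after depletion. The rRNAs were kept apart from the mRNAs because the kit named in the labels (Ribo-Zero Plus) removes ribosomal RNA before sequencing, so a level here combines the RNA in the cell with how completely it was removed. Those 2 cannot be told apart in these libraries. Per kilobase, MT-RNR2 had 4.87 CPM in the mean of all libraries and MT-RNR1 4.74, below the lowest mRNA, MT-ATP8, at 65.0. Cytosolic rRNA rows give no second view of depletion, since 0 of 550 such rows had any count and 11 of them had 150 bases or more, the read length named in the labels.

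All 22 tRNA rows were at 0 in every library and none was tested. A count of 0 allows up to 0.0590 to 0.0915 CPM, depending on the library, with counting error only. The rows are 59 to 75 bases long, 14 on the plus and 8 on the minus strand, all shorter than a 150-base read. The shortest and longest, MT-TS2 (chrM:12207-12265), which carries serine, and MT-TL1 (chrM:3230-3304), which carries leucine, show how little sequence a row offers.
MT-TS2: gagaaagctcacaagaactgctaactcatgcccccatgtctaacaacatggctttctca
MT-TL1: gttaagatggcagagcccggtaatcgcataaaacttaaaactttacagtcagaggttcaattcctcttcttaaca
Other rows of this length behaved alike. Of 6087 rows outside the MT- set with transcripts under 150 bases, 4 (0.0657%) had any count, against 5.57% of rows of 150 to 199 bases, 14.0% of 200 to 299, 31.6% of 300 to 499 and 82.8% of 1000 bases or more. A 0 in a tRNA row is read here as not measured, and neither a share nor a difference between the compounds can be given for this class.

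**Figure D5:**
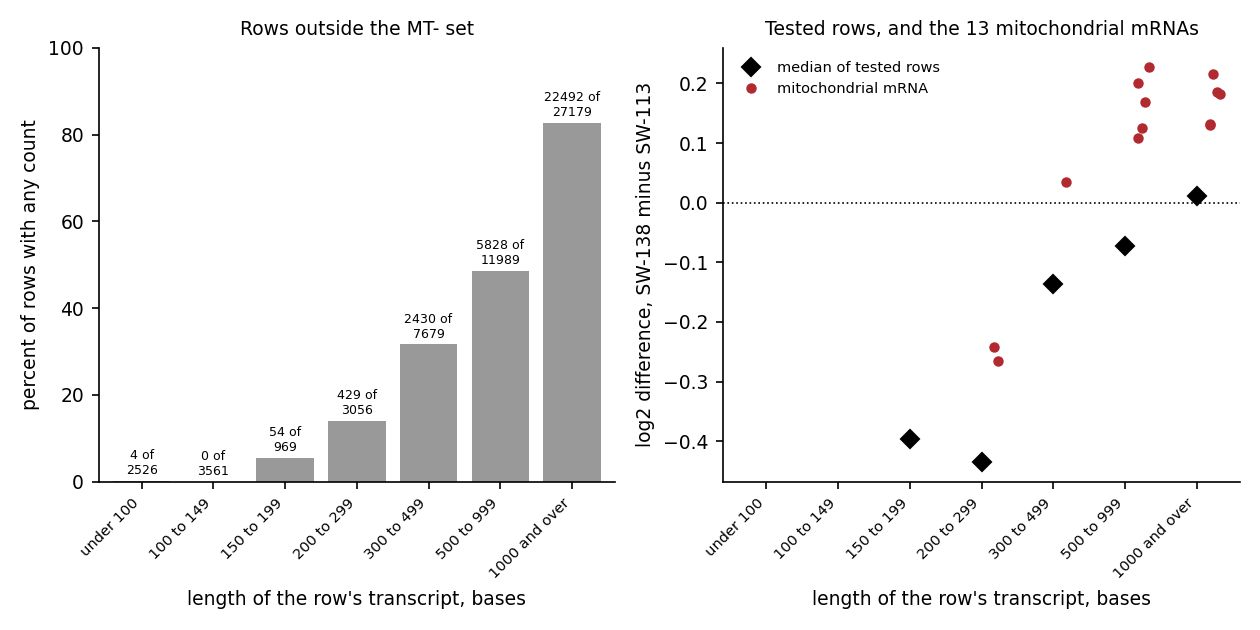
Left, percent of rows outside the MT- set that had any count in the 6 libraries, by length of the longest transcript in bases, with the number of rows. Right, median log2 difference (SW-138 minus SW-113) of the tested rows in each length class (diamonds) and the 13 mitochondrial mRNAs (red circles). Below 150 bases 4 of 6087 rows had a count, and the medians run from -0.43 at 200 to 299 bases to 0.01 at 1000 bases or more.

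Nuclear copies of mitochondrial genes, stretches of mitochondrial DNA that were inserted into chromosomes, can take or lend reads. The table held 310 rows named as such copies, of which 99 had any count and 13 were tested, and edgeR called 0, against 6.82% of all tested genes, as did DESeq2 and limma-voom. Without adjustment 1 of the 13 was under 0.05, against 22.3% of all tested genes. MTCO1P12 was called higher with genes kept at 1 count in 1 library and without SW-138 replicate 2. The most counted were MTATP6P1 (chr1:633696-634376) and MTCO1P12 (chr1:631074-632616), neighbours on chromosome 1. MTATP6P1 is 98.5% identical to MT-ATP6, with 10 differing bases in 681, and MTCO1P12 is 98.7% identical to MT-CO1, with 20 in 1542 aligned. MTATP6P1 had 27.7 to 42.3 CPM and a log2 difference of -0.01 (edgeR adjusted p = 0.978). MTCO1P12 had 22.8, 14.9 and 18.9 CPM with SW-113 and 24.9, 22.2 and 32.4 with SW-138, at 0.50 ± 0.16 (SE, edgeR adjusted p = 0.094). MTND6P3 and MTCO1P1, the next in counts, were at -0.30 and 0.41 (edgeR adjusted p = 0.611 and 0.443).

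For most mRNAs the copies held few counts. They made up 2.10% to 2.66% of the counts of MT-ATP6 and its copies together, 0.254% to 0.430% for MT-CO1 and 0.374% to 0.636% for MT-ND6. Of the 150-base windows of each row, 15.7% of those in MT-ND2 and 14.5% of those in MT-CO1 also occur without a mismatch in transcripts of other genes, as do 1.12% of those in MT-ND1, and none of those in the other 10 mRNAs and 2 rRNAs do. The counts of MT-ND1, MT-ND2, MT-CO1 and MT-ATP6 were not whole in 6 of 6 libraries. For MT-RNR2 the share is larger, since its 13 copies held 6.70% to 35.1% of the joint counts. Every SW-138 library had a higher such share than every SW-113 library. The tested copies MTRNR2L4, MTRNR2L3 and MTRNR2L8 had few counts and were at 0.65, 1.06 and 0.61 on the log2 scale (edgeR adjusted p from 0.301 to 0.418). These copies were 80.4%, 82.3% and 93.0% identical to MT-RNR2 over the aligned bases. The counts of MT-RNR2 were not whole in 0 of 6 libraries. With the copies added, MT-RNR2 was at -1.08 (edgeR adjusted p = 0.030) in place of -1.41. Whether reads passed between MT-RNR2 and its copies was not tested.

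Against 6.82% of all tested genes, the test between the compounds called 4.73% of the nuclear genes listed for the mitochondrial genome. The lists cover its copying, transcription, RNA processing and translation, and also regulators of mitochondrial biogenesis and mitochondrial proteases and import chaperones. Of 148 genes in 9 lists, all of which were tested, 0 were called higher, against 466 of 16905 tested genes. The other calls were 7 lower (4.73%, against 4.06% of all tested genes), and 141 did not pass. The median log2 difference was -0.03, against 0.01 over all tested genes. With total counts as the only scaling 2 were called higher and 2 lower, against 923 and 377 of 16905 tested genes. The calls also rested on single libraries, with 1 to 12 genes called when 1 library was left out, 1 without SW-113 replicate 3, 2 each without SW-113 replicate 1, SW-113 replicate 2 and SW-138 replicate 1, 5 without SW-138 replicate 3 and 12 without SW-138 replicate 2.

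Among the 8 genes for transcription 1 was called, lower (12.5%, against 4.06% of all tested genes). It was MRPL12, a ribosomal protein that also binds the mitochondrial RNA polymerase. MRPL12 fell by 0.31 ± 0.07 on the log2 scale (SE, edgeR adjusted p = 0.028). Of all tested genes 6.82% were called in either direction, the share to set beside each 0 in this paragraph. Among 22 genes for DNA replication and nucleotide supply 0 passed, and the 2 with the smallest p were TOP1MT, the mitochondrial topoisomerase, at -0.22 and RRM2B, a ribonucleotide reductase subunit, at -0.23 (edgeR adjusted p = 0.054 and 0.076). Of 6 genes for cleavage of the precursor and processing of tRNA ends 0 passed, with HSD17B10, a subunit of mitochondrial RNase P, at -0.16 and ELAC2, which cuts the 3′ end, at -0.09 (edgeR adjusted p = 0.275 and 0.444). Among 33 genes that modify rRNA and tRNA 0 passed either, with TRMT1 at -0.17 and TRMT5 at 0.11, both tRNA methyltransferases (edgeR adjusted p = 0.128 and 0.266).

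RNA stability, polyadenylation and decay had 2 of 16 genes called lower (12.5%, against 4.06% of all tested genes). SLIRP, which with LRPPRC holds mitochondrial mRNAs stable, had 43.1, 40.01 and 40.5 CPM with SW-113 and 32.7, 32.3 and 33.2 with SW-138. The groups did not overlap, which held for 15.4% of tested genes in that direction. SLIRP fell by 0.33 ± 0.06 on the log2 scale (SE, edgeR adjusted p = 0.0074). That call held in 11 of 11 other settings and in 6 of 6 fits that left out 1 library. LRPPRC did not pass, at a log2 difference of 0.07 (edgeR adjusted p = 0.539). REXO2, an exonuclease that clears short RNAs, fell by 0.19 ± 0.05 (edgeR adjusted p = 0.044), a call that held in 1 of 6 such fits.

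Translation and protein upkeep held the other calls. OXA1L, which inserts mitochondrial proteins into the inner membrane, fell by 0.20 ± 0.05 (1 of 21 translation factors called, edgeR adjusted p = 0.040). CARS2, the cysteinyl-tRNA synthetase, fell by 0.25 ± 0.06 (1 of 22 aminoacyl-tRNA synthetases and amidotransferase subunits called, edgeR adjusted p = 0.023). These calls are 4.76% and 4.55% of their lists, against 4.06% of all tested genes called lower. Among 11 proteases and import chaperones 2 were called lower (18.2%, against 4.06% of all tested genes), HSPE1, the cochaperone of HSPD1, which fell by 0.38 ± 0.06, and CLPP, the peptidase of the matrix, which fell by 0.28 ± 0.07 (edgeR adjusted p = 0.0087 and 0.039). Of 9 regulators of mitochondrial biogenesis 0 passed, against 6.82% of all tested genes, with ESRRA at -0.27 and NRF1 at 0.15 (edgeR adjusted p = 0.060 and 0.234). Of the 6 fits that left out 1 library, HSPE1 passed in 5, CARS2 and CLPP in 2 each, MRPL12 in 1 and OXA1L in 0. The longest transcripts of the 7 called genes have 865 (SLIRP), 950 (HSPE1), 1028 (MRPL12), 1161 (REXO2), 1346 (CLPP), 2971 (OXA1L) and 3516 bases (CARS2), so that 2 of 7 were in the length class of 500 to 999 bases and 5 in that of 1000 or more.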

How the data were processed

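RNA from HT1080 cells was sequenced after ribosomal RNA depletion, per the labels' protocols. The authors deposited expected counts per gene and library, estimates that need not be whole. Tools listed in the submitters' processing notes, without their roles, are RSEM 1.3.3, Bowtie2 2.5.4, Trimmomatic 0.39 and DESeq2 1.42.0, with GRCh38 as the build. RSEM shares out reads that fit several genes. Annotation version and strand setting are not given in the sources used here. Counts were rounded, filtered with filterByExpr, scaled by TMM and tested with edgeR 4.0.16 (quasi-likelihood, Benjamini-Hochberg over 16905 genes at 0.05). Standard errors and 95% intervals used limma 3.58.1 (voom). The fit was tested on simulated data. Shares and ratios were compared by an exact permutation test. DESeq2 1.42.0, limma-voom, other scalings and filters, and fits without 1 library were alternatives. Coordinates, lengths (longest transcript) and sequences came from GENCODE release 29. The mitochondrial rows, the gene lists, the alternatives and the rule for named genes (every MT- row by name or range, in each nuclear list the called genes, up to 6, or else the 2 with the smallest p, and the 4 most counted nuclear copies) were chosen with earlier results of these data known. The main fit did not pair libraries by replicate number. Deviations of same-numbered libraries correlated at 0.05, 0.21 and 0.05, not all above 0.1, the cutoff used here. The 0.21, between replicate 2 of each compound, was the highest of any pair. These values do not settle whether same-numbered libraries shared a batch.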

Additional observations from a re-analysis of the deposited data

How the results depend on the processing

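Alternatives were other scalings, other filters on low counts, other tools, nuclear copies added to MT- rows, a replicate block and leaving out each library. The number of differing genes was 2061 of 31536 tested with genes kept at 1 count in 1 library and 2361 of 16905 with the replicate block. It was 1300 of 16905 with total count scaling and 303 to 1619 with 1 library left out. These are the backgrounds for the counts that follow. Mitochondrial mRNAs called were 6 at that filter (MT-ND1, MT-ND4, MT-CO3, MT-CYB and MT-ND2 higher, MT-ND4L lower), 3 with the replicate block (MT-ND1 and MT-CO3 higher, MT-ATP8 lower) and 0 to 1 with 1 library left out. Mitochondrial rRNAs called were 1 at a mean of 5 CPM, where MT-RNR1 was not tested, 1 with limma-voom, 0 with robust edgeR (adjusted p = 0.109 for MT-RNR2 and 0.083 for MT-RNR1) and 0 to 2 with 1 library left out. MT-RNR1 was lower in 16 of 16 alternatives and passed in 10, and MT-RNR2 was lower in 17 of 17 and passed in 15. Genes of the nuclear lists called were 4 with total count scaling, 14 at 1 count in 1 library, 17 with the replicate block and 1 to 12 with 1 library left out. Nuclear copies called were 1 at 1 count in 1 library, 1 with the replicate block and 0 to 1 with 1 library left out. The cause of these shifts was not tested. Leaving out 1 library moved log2 differences through 0 for MT-ND6 (-0.048 to 0.26), MT-CO2 (-0.0086 to 0.23), MT-ND5 (-0.032 to 0.24), MT-CO1 (-0.016 to 0.26), MT-ND3 (-0.092 to 0.14), MT-ATP6 (-0.028 to 0.33) and MTATP6P1 (-0.18 to 0.10). MTATP6P1 was also at 0.054 with total count scaling and 0.015 with limma-voom, and complex I relative to complex IV reversed to -0.0014 per kilobase.

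The replicate block left the differences of the shares and ratios as they were, with a paired exact permutation p of 0.25, the smallest for 3 pairs, for the mRNA and rRNA shares and the MT-ND6 and rRNA ratios, and 0.75 for complex I against complex IV. Shared numbers alone do not settle a pairing. SW-113 replicate 1 correlated best with SW-138 replicate 3 (0.052 against 0.049 for its own number). SW-113 replicate 3 correlated best with SW-138 replicate 1 (0.090 against 0.051), but SW-113 replicate 2 with its own number (0.21). No test was possible for the tRNAs, for which the planned count, share and ratio were not run. The 3 libraries per compound limit every statement, and the rRNA rows rest on 94 to 613 counts.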
